A study of Mus musculus with 7 samples.

Results

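A set of 42 skeletal muscle genes was followed in bulk RNA-seq of 7 subcutaneous tumors of mouse pancreatic ductal adenocarcinoma (PDA). The genes encode proteins of the sarcomere, of calcium handling and of energy supply in the muscle fiber. They were picked by name because muscle genes were already known to be high in the tumors with edited *Krt19*, so their values describe that difference and carry no test. The 42 symbols occupy 44 of the 38026 rows of the deposited table, since *Pygm* and *Fbxo32* each have 2 identifiers with identical values and were counted once.

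The tumors grew from 1242 cells, a line from a pancreatic tumor of a KPC mouse. All of these cells expressed Cas9 from a lentivirus and had been selected with puromycin, with a scrambled guide RNA in the control tumors (sgScramble, replicates 1 to 4, n = 4) and a guide against *Krt19*, an epithelial keratin, in the others (sgKRT19, replicates 5, 6 and 8, n = 3). C57BL/6 mice bought at 6 weeks of age and housed for 2 weeks were inoculated in the right flank, received no treatment, and gave tumors 2 weeks later. The comparison asks how gene expression in the tumor differs once *Krt19* has been edited in the cancer cells. The paper reports slower growth for tumors of *Krt19*-edited cells than for control tumors. Editing and tumor growth therefore go together in this comparison and cannot be told apart. The labels do not say which guide was used, or whether the cells were a polyclonal line or a single clone. The whole tumor was sequenced, host tissue included, and nothing in the labels or the methods says how adjoining tissue was trimmed.

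Skeletal muscle contracts when calcium released from the sarcoplasmic reticulum binds troponin on the actin filament and lets myosin heads pull on it. The filaments repeat in sarcomeres bounded by Z discs, and fast fibers draw on creatine phosphate and glycolysis for rapid energy. Pancreatic cancer cells are epithelial and make little of this machinery, although a few of these genes, such as *Eno3* and *Fbxo32*, are also used outside muscle. Under the skin of the mouse flank lies a thin sheet of striated muscle, the panniculus carnosus, with the body wall muscle beneath it. In a bulk sample, fewer or more muscle cells and less or more RNA per cell cannot be told apart.

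Each value is a normalized read count, which is the number of reads of a gene divided by the size factor of its library. Libraries held 40781199 to 44972100 reads. A count of 3 reads, used as the detection floor, corresponds to a value of 2.74 to 3.47, and the floor and all intervals cover counting error only. *Krt19* itself lay at 17841 to 27618 in the sgScramble libraries and at 1606 to 2470 in the sgKRT19 libraries. Library sgScramble 3 stood apart from its group in most of the muscle genes, so it is given on its own beside sgScramble 1, 2 and 4 throughout.

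The upstream sequences of these genes carry letters that muscle transcription factors are known to bind. RefSeq (build GRCm38.p6) supplied the 250 bases before the start for 27 of the 42 genes, matched by symbol. The E box CAGCTG, a form bound by MyoD and myogenin, was found in 15 of the 27 (55.6%), against 14.7% of 27025 genes in the same window. The MEF2 motif stood in 5 of the 27 (18.5%, against 3.42% of genes) and the CArG box, the site of serum response factor, in 3 (11.1%, against 1.62%). At least 1 of these 3 motifs was present in 20 of the 27 (74.1%), against 18.9% of genes. All were searched on both strands. The looser E box CANNTG, which contains CAGCTG, was in 24 of the 27 (88.9%, against 69.3%) and CATTCC, the core of the M-CAT element, in 6 (22.2%, against 14.4%). A TATA box spelled TATAAA on the gene's own strand was in 2 (7.41%, against 8.94%).

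The following 5 sequences run 5′ to 3′ along the gene's own strand and end at the base before the RefSeq start, with CAGCTG, MEF2, CArG and TATAAA matches in capitals. *Acta1* is shown as the gene with the highest level of the set, with CAGCTG 221 bases, a CArG box 73 bases and TATAAA 7 bases before the start. *Klhl41* and *Pgam2* are shown because each holds CAGCTG (127 and 125 bases before the start) and a MEF2 motif (63 and 80 bases before it). *Trim63* is a gene with no read in 3 of the 4 control tumors, and it holds CAGCTG 72 bases and TATAAA 31 bases before the start. *Eno3* is a gene with a level of 530.4 or more in every control tumor and none of these matches. The windows lie at chr8:123894776-123895025 on the minus strand (*Acta1*), chr2:69669870-69670119 on the plus strand (*Klhl41*), chr11:5803797-5804046 on the minus strand (*Pgam2*), chr4:134314870-134315119 on the plus strand (*Trim63*) and chr11:70656926-70657175 on the plus strand (*Eno3*).
Acta1: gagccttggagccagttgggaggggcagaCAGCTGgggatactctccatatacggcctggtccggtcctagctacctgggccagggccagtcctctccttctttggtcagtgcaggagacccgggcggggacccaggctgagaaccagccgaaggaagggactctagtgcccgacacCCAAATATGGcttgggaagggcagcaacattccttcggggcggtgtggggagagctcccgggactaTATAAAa
Klhl41: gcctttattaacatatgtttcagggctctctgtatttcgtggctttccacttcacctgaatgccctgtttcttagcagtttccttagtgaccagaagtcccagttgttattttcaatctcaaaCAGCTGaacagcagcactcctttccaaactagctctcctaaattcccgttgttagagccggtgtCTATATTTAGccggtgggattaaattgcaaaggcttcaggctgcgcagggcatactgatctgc
Pgam2: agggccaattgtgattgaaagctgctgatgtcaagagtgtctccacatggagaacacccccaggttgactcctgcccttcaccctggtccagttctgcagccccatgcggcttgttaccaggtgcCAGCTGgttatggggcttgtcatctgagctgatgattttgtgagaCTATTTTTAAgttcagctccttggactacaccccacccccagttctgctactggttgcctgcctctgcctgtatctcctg
Trim63: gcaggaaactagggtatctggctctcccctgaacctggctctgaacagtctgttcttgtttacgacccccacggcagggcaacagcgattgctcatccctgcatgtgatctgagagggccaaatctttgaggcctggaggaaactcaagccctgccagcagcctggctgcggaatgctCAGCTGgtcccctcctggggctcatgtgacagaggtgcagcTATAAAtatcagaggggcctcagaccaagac
Eno3: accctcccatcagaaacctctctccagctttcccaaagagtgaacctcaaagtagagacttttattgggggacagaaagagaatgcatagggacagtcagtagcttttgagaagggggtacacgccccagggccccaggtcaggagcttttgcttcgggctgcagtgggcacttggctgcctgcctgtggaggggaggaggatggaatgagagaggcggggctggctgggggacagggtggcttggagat
A match is a description of the letters and does not show that a factor bound there. The other genes with none of CAGCTG, MEF2 and CArG in the window were *Tnnc2*, *Mybpc2*, *Actn2*, *Smpx*, *Ryr1* and *Cox7a1*.

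Taken as a sum, the 42 genes reached 56087, 38948 and 51867 in sgKRT19 5, 6 and 8. In sgScramble 1, 2 and 4 the sum was 2409, 2504 and 2624, and in sgScramble 3 it was 7014. The 3 kinds of library therefore formed 3 separate levels, with sgScramble 3 at 14.3% of the sgKRT19 mean of 48967 ± 8930 (SD, n = 3). Against the mean of all 4 sgScramble libraries the sgKRT19 mean was 13.5-fold higher, and without sgScramble 3 it was 19.5-fold higher. Even at its highest, the sum was a small share of a library, 0.0880% to 0.116% of the reads in sgKRT19, 0.0176% in sgScramble 3 and 0.00577% to 0.00688% in the other sgScramble libraries.

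All 42 genes passed the filter for testing, which requires 3 or more libraries with a value of 10 or more. For 23 of them at most 1 sgScramble library reached 10, so they passed mainly through the sgKRT19 libraries. In 39 genes every sgKRT19 library lay above every sgScramble library, in 1 (*Jph1*) every sgKRT19 library lay below, and in *Cox7a1* and *Fbxo32* the groups overlapped. Over all 21322 genes that passed the filter, the groups did not overlap with sgKRT19 higher in 21.7% and with sgKRT19 lower in 19.3%. The genes were chosen from this very contrast, so nothing is read from the difference between 39 of 42 and that background. The ratio of the group means had a median of 24.6 over the 42 genes and ran from 0.491 for *Jph1* to 67.1 for *Xirp2*. The plot of all 42 genes by library shows the 3 levels in the same order in 38 genes, all but *Jph1*, *Cox7a1*, *Eno3* and *Fbxo32*.

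**Figure D1:**
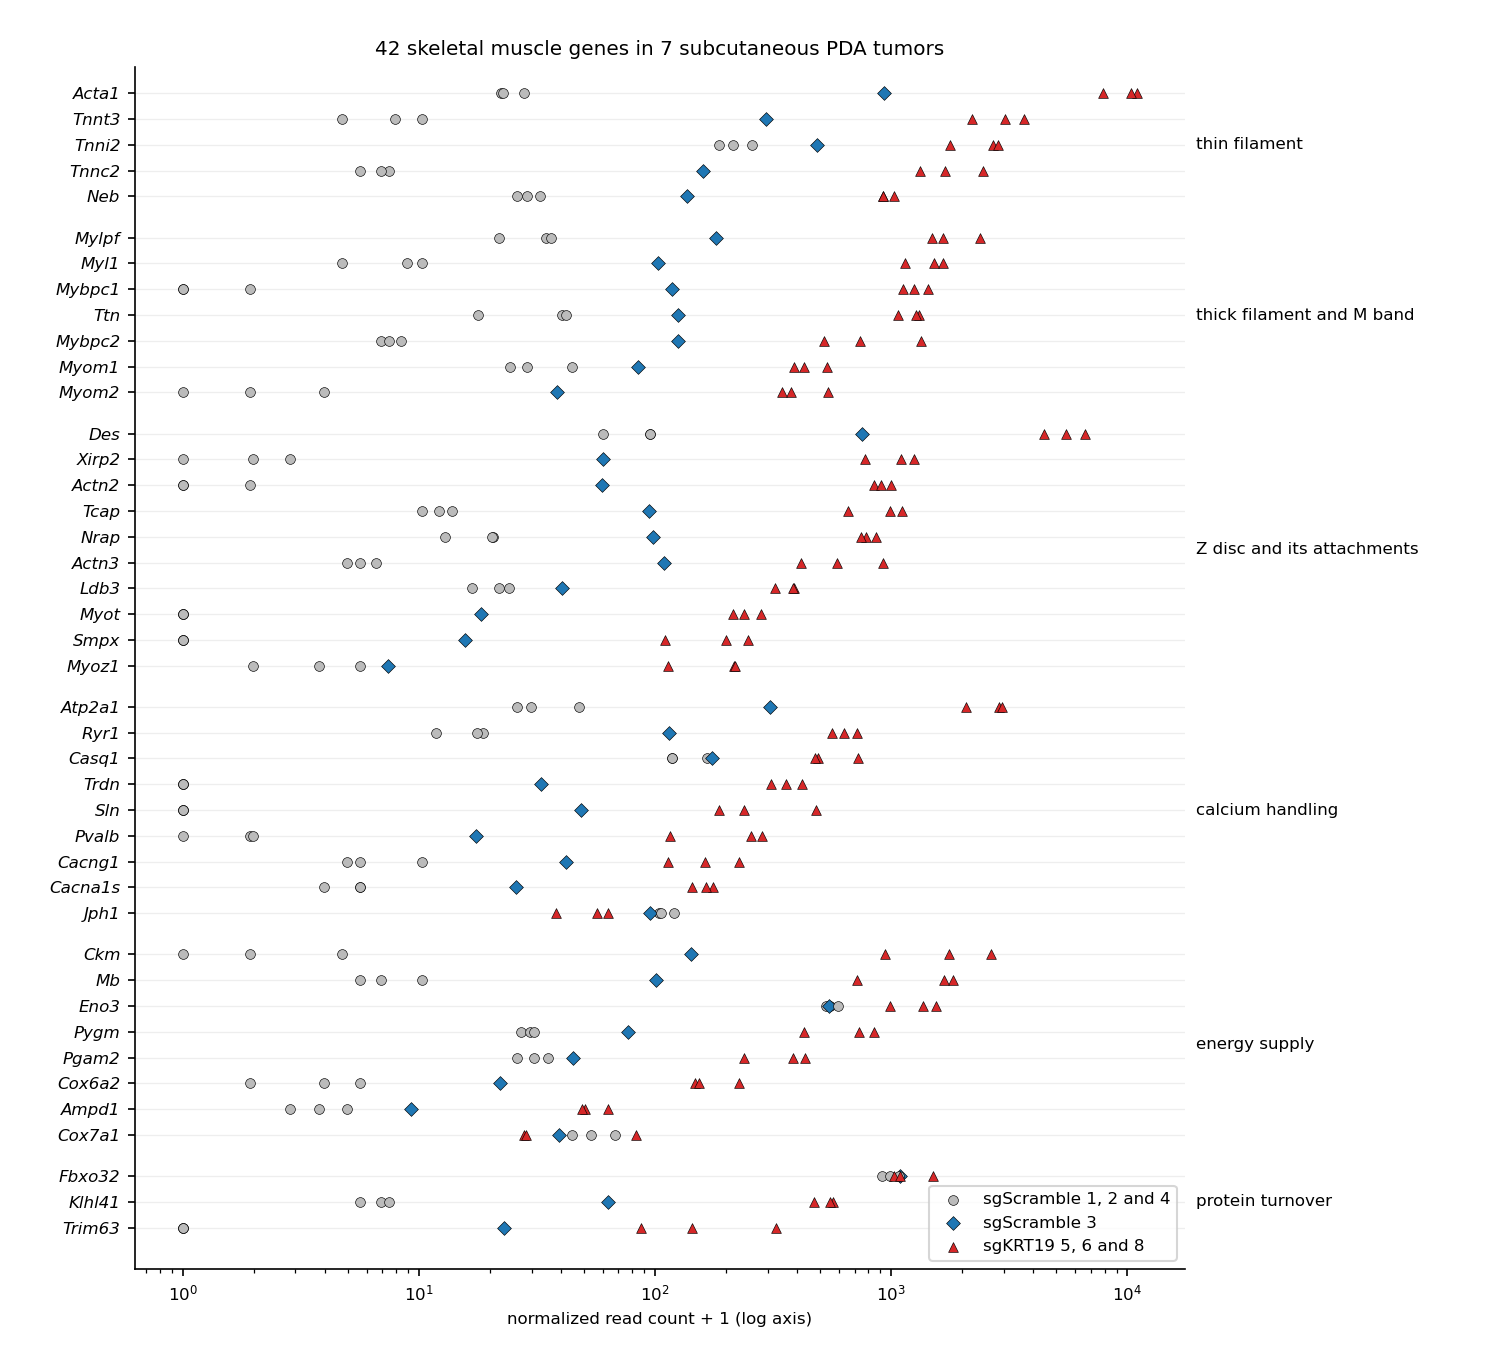
Normalized read count plus 1 (log axis) of each of the 42 genes, grouped by role and ordered by sgKRT19 mean. Grey circles are sgScramble 1, 2 and 4, blue diamonds sgScramble 3 and red triangles the 3 sgKRT19 libraries, and each point is 1 tumor. In 38 of the 42 genes the diamond lies between the circles and the triangles.

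The thin filament held the gene with the highest level, also per length. *Acta1*, skeletal muscle alpha-actin (ENSMUSG00000031972.5, chr8:123891769-123894751 in GRCm38), measured 21.4, 21.7 and 26.9 in sgScramble 1, 2 and 4, 934.3 in sgScramble 3, and 11010, 7875 and 10381 in sgKRT19 5, 6 and 8. The sgKRT19 mean was 9755 ± 1658 (SD, n = 3), 38.9-fold above the sgScramble mean. Actin genes are close copies of one another, and how reads that fit several of them were assigned is not stated, which leaves the low control values uncertain. *Tnnt3*, the fast troponin T that ties the troponin complex to tropomyosin, measured 3.72, 6.92 and 9.27 in sgScramble 1, 2 and 4, 294.1 in sgScramble 3, and 3644, 2196 and 3020 in sgKRT19. *Tnni2*, the fast inhibitory troponin subunit, measured 213.6, 255.9 and 186.4 in sgScramble 1, 2 and 4, 483.1 in sgScramble 3, and 2691, 1777 and 2830 in sgKRT19. Its control level was far above that of its partner subunit *Tnnt3*, and its sgKRT19 mean was only 8.54-fold above the sgScramble mean, against 37.6-fold for *Tnnt3*.

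The fast troponin C gene *Tnnc2*, the calcium sensor of the complex, was at 4.64 to 6.502 in sgScramble 1, 2 and 4, at 158.9 in sgScramble 3 and at 1320 to 2451 in sgKRT19. Its exons overlap the opposite-strand gene *Ube2c* over 74.0% of their length, and *Ube2c* was at 2908 to 7818 in every library while *Tnnc2* stayed near the floor in 3 of them. *Neb*, nebulin, the giant protein laid along the actin filament, was at 25.1 to 31.5 in sgScramble 1, 2 and 4, at 136.1 in sgScramble 3 and at 923.7 to 1027 in sgKRT19. It varied least of all 42 genes among the sgKRT19 libraries, the highest being 1.11 times the lowest.

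In the thick filament and the M band the light chains led. *Mylpf*, the regulatory light chain of fast myosin, measured 33.4, 20.8 and 35.2 in sgScramble 1, 2 and 4, 179.9 in sgScramble 3, and 2371, 1486 and 1661 in sgKRT19. *Myl1*, the essential light chain, measured 9.29, 7.90 and 3.71 in sgScramble 1, 2 and 4, 102.3 in sgScramble 3, and 1660, 1144 and 1522 in sgKRT19. *Mybpc1*, the slow form of myosin-binding protein C, had no read in sgScramble 1 and 2, a value of 0.927 in sgScramble 4, 116.9 in sgScramble 3, and 1429, 1126 and 1249 in sgKRT19. Without sgScramble 3, whose 128 reads set the control mean, the sgKRT19 mean of *Mybpc1* was at least 428-fold higher, computed against the floor per library. The fast form, *Mybpc2*, was less even among the sgKRT19 tumors, at 738.7, 517.1 and 1341, with 124.2 in sgScramble 3 and 5.93 to 7.43 in the others.

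*Ttn*, titin, which spans from Z disc to M band, was at 16.7 to 40.8 in sgScramble 1, 2 and 4, at 124.2 in sgScramble 3 and at 1068 to 1312 in sgKRT19. The M band genes *Myom1* and *Myom2*, which cross-link myosin, differed in their control level. *Myom1* was at 23.2 to 43.6 in sgScramble 1, 2 and 4 and *Myom2* at 0 to 2.96, at or under the floor. Both were intermediate in sgScramble 3 (84.0 and 37.4) and high in sgKRT19 (387.1 to 532.9 and 343.4 to 539.9).

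The heavy chains of fast myosin, which define the fiber types and are not among the 42, also lay at 3 levels. *Myh1* was at 3076 to 3851 in sgKRT19, at 221.9 in sgScramble 3 and at 0.929 to 1.85 in the other sgScramble libraries. *Myh2* was at 890.5 to 1402, 60.3 and 0 to 2.79 in the same order. *Myh4*, the heavy chain of the fastest fibers, was at 951.4, 754.1 and 3249 in sgKRT19 5, 6 and 8, at 199.1 in sgScramble 3 and at 0 to 0.929 in the others. These genes are near-identical neighbors, so the split of reads between them is uncertain.

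Among the Z disc genes, *Des* was the most abundant. Desmin, the intermediate filament of muscle that links Z discs sideways, measured 93.8, 59.3 and 94.6 in sgScramble 1, 2 and 4, 753.5 in sgScramble 3, and 6602, 4419 and 5481 in sgKRT19. *Xirp2*, an actin-binding protein of the Z disc region, measured 1.86, 0.988 and 0 in sgScramble 1, 2 and 4, 59.4 in sgScramble 3, and 776.9, 1251 and 1102 in sgKRT19. *Actn2*, the alpha-actinin that cross-links actin at the Z disc, measured 0, 0 and 0.927 in sgScramble 1, 2 and 4, 58.5 in sgScramble 3, and 998.8, 847.1 and 903.1 in sgKRT19. *Des* therefore had a measurable level in every control tumor, while *Xirp2* and *Actn2* were at or under the floor in 3 of the 4. Without sgScramble 3, the sgKRT19 means of *Xirp2* and *Actn2* were at least 352-fold and at least 309-fold higher, again against the floor.

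The other 7 Z disc genes had the same order of the 3 levels. *Actn3*, the alpha-actinin of fast fibers, was at 412.1 to 924.8 in sgKRT19 and at 107.8 in sgScramble 3, 16.8% of the sgKRT19 mean, while *Actn2* in sgScramble 3 was at 6.38% of it. *Tcap*, which caps titin at the Z disc, was at 652.1 to 1109 and *Nrap*, which helps to assemble new sarcomeres, at 741.4 to 865.1 in sgKRT19. The Z disc scaffold *Ldb3*, the actin cross-linker *Myot* (myotilin) and *Smpx*, a small muscle protein, had fewer reads, at 322.1 to 385.0, 213.0 to 280.4 and 109.0 to 247.4 in sgKRT19, and the latter pair had no read in sgScramble 1, 2 and 4. *Myoz1*, which ties calcineurin to the Z disc, was the Z disc gene in which sgScramble 3 came nearest to its own group. It had 7 reads in sgScramble 3 (a value of 6.39), 0.988 to 4.64 in the other sgScramble libraries and 112.0 to 217.4 in sgKRT19.

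Calcium handling held both the strong and the exceptional members. *Atp2a1*, the pump SERCA1 that returns calcium to the sarcoplasmic reticulum of fast fibers, measured 25.1, 46.4 and 28.8 in sgScramble 1, 2 and 4, 306.0 in sgScramble 3, and 2853, 2078 and 2939 in sgKRT19. *Ryr1*, the release channel, measured 17.6, 10.9 and 16.7 in sgScramble 1, 2 and 4, 113.3 in sgScramble 3, and 713.3, 631.1 and 558.7 in sgKRT19. *Casq1*, calsequestrin, the calcium store of fast fibers (ENSMUSG00000007122.11, chr1:172209894-172219868), measured 164.4, 116.6 and 116.9 in sgScramble 1, 2 and 4, 172.6 in sgScramble 3, and 719.1, 488.1 and 472.6 in sgKRT19. For *Casq1*, sgScramble 3 was thus only 1.05 times the highest of the other controls, and the sgKRT19 mean was 3.93-fold above the sgScramble mean.

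*Jph1* was the only one of the 42 that was lower in every sgKRT19 tumor. Junctophilin 1 (ENSMUSG00000042686.5, chr1:16964560-17097889) holds the sarcoplasmic reticulum to the surface membrane in the triad, next to *Ryr1* and the voltage sensor *Cacna1s*. It measured 103.1, 119.6 and 104.8 in sgScramble 1, 2 and 4, 94.1 in sgScramble 3, and 62.4, 37.0 and 55.7 in sgKRT19, a sgKRT19 mean 0.491 times the sgScramble mean. Its triad partners moved the other way, with *Cacna1s* at 2.96 to 4.64 in sgScramble 1, 2 and 4, 24.7 in sgScramble 3 and 142.0 to 175.7 in sgKRT19. *Trdn*, triadin, which couples calsequestrin to the release channel, had no read in sgScramble 1, 2 and 4, a value of 32.0 in sgScramble 3 and 310.1 to 416.2 in sgKRT19.

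The remaining calcium genes had few reads or none in the controls. *Sln*, sarcolipin, an inhibitor of the calcium pump, had no read in sgScramble 1, 2 and 4, a value of 47.5 in sgScramble 3, and 477.4, 185.0 and 236.3 in sgKRT19. *Pvalb*, parvalbumin, the calcium buffer of the fastest fibers, was at 0 to 0.988 in sgScramble 1, 2 and 4, at 16.4 in sgScramble 3, and at 254.3, 115.0 and 282.5 in sgKRT19. *Cacng1*, a subunit of the surface calcium channel, was at 3.95 to 9.29, then 41.1 in sgScramble 3, and at 113.0 to 225.4 in sgKRT19.

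Energy genes split into genes near the floor in most controls and genes with a clear level in every tumor. *Ckm*, muscle creatine kinase, measured 0.929, 0 and 3.71 in sgScramble 1, 2 and 4, 140.6 in sgScramble 3, and 1755, 938.2 and 2653 in sgKRT19. *Mb*, myoglobin, the oxygen store, measured 4.64, 5.93 and 9.27 in sgScramble 1, 2 and 4, 99.6 in sgScramble 3, and 1825, 715.1 and 1665 in sgKRT19. *Eno3*, the muscle enolase of glycolysis (ENSMUSG00000060600.15, chr11:70657202-70662513), measured 530.4, 548.4 and 594.5 in sgScramble 1, 2 and 4, 545.2 in sgScramble 3, and 1546, 985.2 and 1358 in sgKRT19. *Eno3* was the gene in which sgScramble 3 fell among the other controls, and the sgKRT19 mean of 1296 ± 285.3 (SD, n = 3) was 2.34-fold above the sgScramble mean.

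*Cox7a1*, the heart and muscle form of a cytochrome c oxidase subunit (ENSMUSG00000074218.3, chr7:30184144-30186078), did not separate the groups. It measured 66.9, 52.4 and 43.6 in sgScramble 1, 2 and 4, 38.4 in sgScramble 3, and 82.1, 27.0 and 27.3 in sgKRT19, so that 1 sgKRT19 tumor was the highest and the other two the lowest of all 7. *Cox6a2*, another muscle form of a subunit of the same enzyme, did separate them, at 0.927 to 4.64 in sgScramble 1, 2 and 4, 21.01 in sgScramble 3 and 146.0 to 226.6 in sgKRT19. The glycogen enzyme *Pygm* reached 425.1 to 841.2 in sgKRT19 and the glycolytic enzyme *Pgam2* 238.0 to 430.0, from 26.0 to 29.7 and 25.1 to 34.3 in sgScramble 1, 2 and 4. *Ampd1*, which deaminates AMP in working muscle, had the fewest reads of the 39 genes that were higher, at 48.0 to 62.0 in sgKRT19, with 9 reads (8.22) in sgScramble 3 and 1.86 to 3.95 in the other controls.

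The turnover genes differed in their control level. *Fbxo32*, the ubiquitin ligase atrogin-1 of muscle wasting (ENSMUSG00000022358.7, chr15:58175879-58214932), measured 909.3, 991.0 and 1074 in sgScramble 1, 2 and 4, 1088 in sgScramble 3, and 1498, 1023 and 1086 in sgKRT19. The groups overlapped, and the sgKRT19 mean was 1.18-fold above the sgScramble mean. *Trim63*, the ligase MuRF1 that acts beside atrogin-1, had no read in sgScramble 1, 2 and 4, a value of 21.9 in sgScramble 3, and 142.2, 86.0 and 323.5 in sgKRT19. *Klhl41*, which steadies nebulin and the thin filament, measured 4.64, 5.93 and 6.49 in sgScramble 1, 2 and 4, 62.1 in sgScramble 3, and 564.1, 469.1 and 547.1 in sgKRT19. The 2 ligases thus parted, *Trim63* being undetected in 3 tumors in which *Fbxo32* was at 909.3 or above.

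In sgScramble 3, 39 of the 42 genes lay above all 3 of the other sgScramble libraries, 1 (*Eno3*) among them and 2 (*Jph1* and *Cox7a1*) below. Of all 21322 genes tested, 21.8% lay above the other 3 in this library. Its values were a fairly even fraction of those in sgKRT19. As a percent of the sgKRT19 mean, sgScramble 3 had a median of 11.7 over the 42 genes, with quartiles of 8.86 and 15.8, and 35 genes lay between 5 and 20. Only *Myoz1* was under 5, at 3.52 (95% Poisson interval for its reads in sgScramble 3, 1.42 to 7.26), and *Casq1*, *Cacng1*, *Jph1*, *Eno3*, *Cox7a1* and *Fbxo32* were over 20. With the mean of sgScramble 1, 2 and 4 first taken from both sides, the median was 9.36.

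The fraction was not the same for every gene within counting error. The interval of 16 genes held the median, that of 12 lay below it and that of 14 above. Among the 12 below it were *Tnnc2* (8.73, interval 7.48 to 10.1), the light chain *Myl1* (7.09, 5.84 to 8.54) and *Xirp2* (5.69, 4.39 to 7.25). Among the 14 above it were *Cacng1* (24.7, upper bound 33.0), *Mybpc2* (14.3, 12.0 to 17.0), *Actn3* (16.8, 13.9 to 20.1) and *Sln* (15.8, 11.8 to 20.8). These intervals cover the reads of 1 library and not the spread among the sgKRT19 tumors, and with 1 library there is no replicate.

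**Figure D2:**
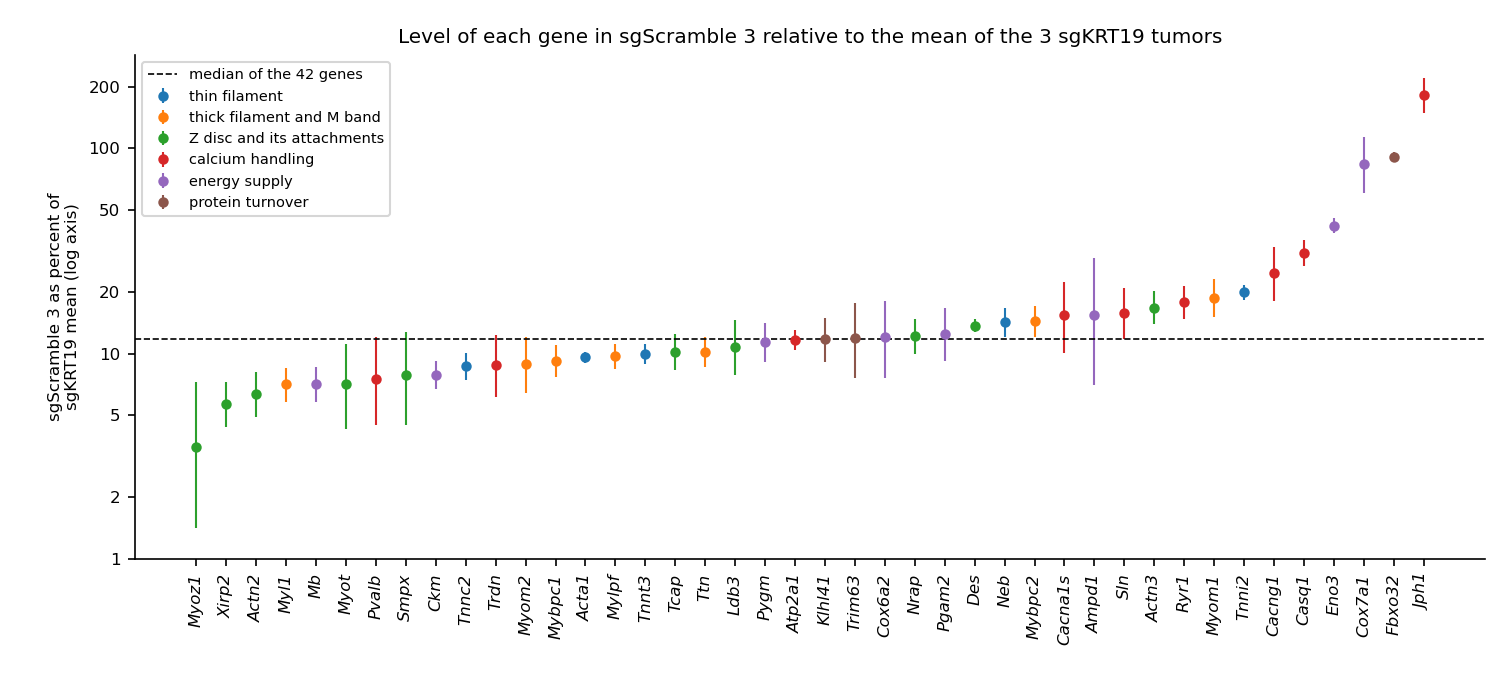
Value in sgScramble 3 as a percent of the mean of the 3 sgKRT19 libraries (log axis) for each of the 42 genes, ordered by that percent and colored by role. Bars are 95% Poisson intervals of the reads in sgScramble 3, the dashed line is the median of 11.7, and the 4 genes at the right, from *Eno3* to *Jph1*, are those between 42.1 and 182.0 percent.

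The shares of the roles in the sum of the 42 genes differed between the 3 levels. In the sgKRT19 libraries, thin filament genes made up 36.3% to 36.9% of the sum of the 42, Z disc genes 20.98% to 23.6%, thick filament and M band genes 14.9% to 16.3%, calcium genes 10.1% to 10.5%, energy genes 9.04% to 13.8% and turnover genes 3.77% to 4.05%. In sgScramble 1, 2 and 4 the turnover genes took 37.9% to 41.2%, nearly all of it *Fbxo32*, and *Eno3* took 21.9% to 22.7%, while thin filament genes took 9.86% to 12.7%. In sgScramble 3 the thin filament share was 28.6% and the turnover share 16.7%, between the other libraries. The sum in 3 of the 4 control tumors was thus mostly made of *Fbxo32* and *Eno3*. These 2 genes were at 1088 and 545.2 in sgScramble 3, near their values in those 3 tumors (909.3 to 1074 and 530.4 to 594.5). The shares include that level, so they do not show a different make-up of the remaining muscle genes.

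Per kilobase of exon, which allows genes to be ranked, the sgKRT19 mean was highest for *Acta1* (6351 per kilobase), followed by *Tnnc2* (2275), *Tnnt3* (1866), *Mylpf* (1732), *Tnni2* (1625) and *Des* (1465). The lowest were *Cacna1s* (24.5), *Ampd1* (15.0), *Ttn* (10.4) and *Jph1* (10.3). Small proteins of the contractile filaments were therefore at the top of this order. The giant titin was near its end although its normalized read count was 1216 ± 130.2 (SD, n = 3).

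The 3 sgKRT19 tumors were not alike in detail. The highest value was 1.57 times the lowest in the median gene, and 3.76 times for *Trim63*. In 28 genes the highest value was in sgKRT19 5, in 10 in sgKRT19 8 and in 4 (*Neb*, *Ttn*, *Xirp2* and *Nrap*) in sgKRT19 6. Library sgKRT19 6 had the lowest value of 35 genes. The 10 genes highest in sgKRT19 8 were *Tnni2*, *Mybpc2*, *Myoz1*, *Myot*, *Pvalb*, *Atp2a1*, *Ckm*, *Pygm*, *Ampd1* and *Trim63*. In the same library *Myh4* was also at its highest, as given above.

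The low values in sgKRT19 6 went with gene length. The ratio of sgKRT19 6 to sgKRT19 5 correlated with exon length across the 42 genes with a Spearman rho of 0.71, across 85 other muscle genes with a rho of 0.53 and across 20930 tested genes with a rho of 0.25. Genes are not independent and these correlations are descriptions within a pair of libraries. The 11 genes with at least 5000 bases of exon, a length chosen after the values were seen, had a median ratio of 0.837 and 4 of them were above 1, whereas the 31 shorter genes had a median of 0.605 and none was above 1. Over all tested genes the medians were 1.09 for the longer and 0.931 for the shorter. The ratio of sgKRT19 6 to sgKRT19 8 had a rho of 0.45 over the 42 genes, 0.28 over the other muscle genes and 0.13 over all tested genes, and that of sgKRT19 8 to sgKRT19 5 a rho of 0.27 over the 42. For sgScramble 3 over the sgKRT19 mean the rho was 0.05, so the fraction described above did not follow length. What set the length dependence was not tested.

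**Figure D3:**
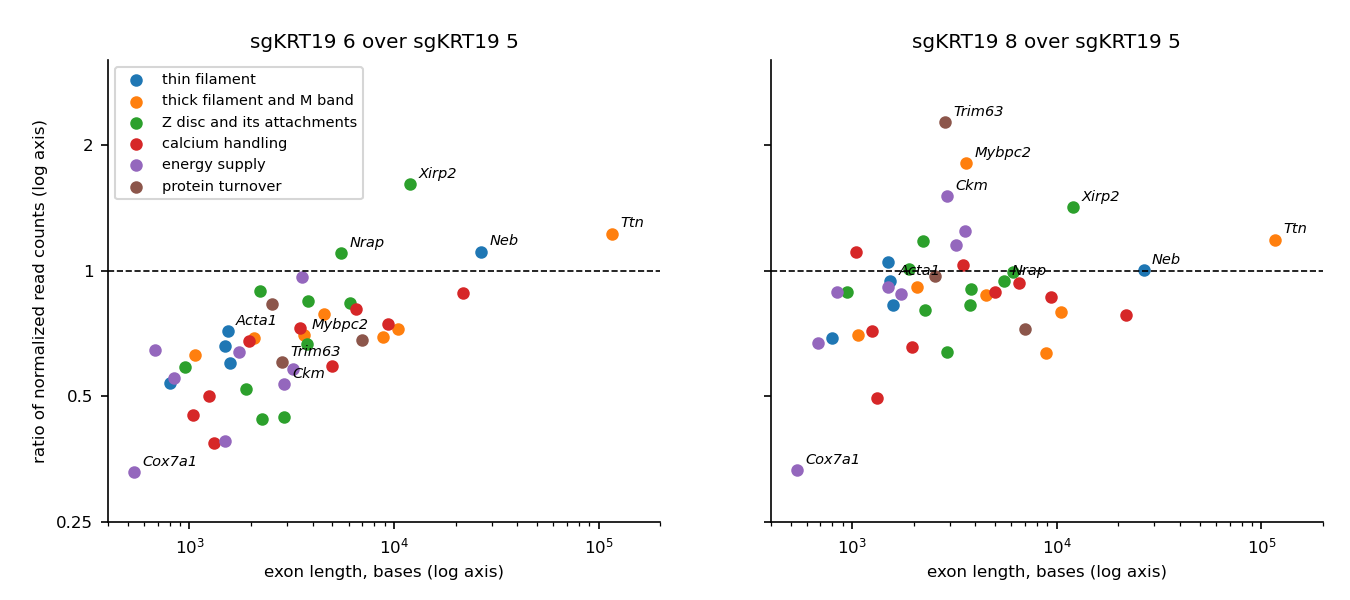
Ratio of normalized read counts between pairs of sgKRT19 libraries (log axes) against exon length in bases for each of the 42 genes, colored by role, with sgKRT19 6 over 5 on the left and sgKRT19 8 over 5 on the right. On the left the ratios rise with length and only *Neb*, *Ttn*, *Xirp2* and *Nrap* lie above the dashed line at 1. On the right short genes such as *Trim63*, *Mybpc2* and *Ckm* lie above it as well.

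A wider set of 90 muscle genes that are not among the 42 was read in the fit over all genes. Of the 85 that were tested, 61 were called higher and 4 lower in sgKRT19 by limma at an adjusted p under 0.05, with a median log2 fold change of 1.90 on the log2(value + 1) scale. Over all 21322 genes, 17.9% were called higher and 16.0% lower, with a median of 0.007. When libraries were scaled by their total instead of the authors' size factor, the median of all genes moved to -0.21 and the calls to 2177 higher and 5727 lower, from 3820 and 3420, with 55 of the muscle genes called higher and 5 lower. The lists were written with results of these data known and are a description. Of the 85, 15 reached a value of 10 in no sgScramble library, among them *Cacng6*, *Sypl2*, *Ckmt2*, *Ppp1r3a*, *Cox8b* and *Cav3* below. They passed the filter only through the sgKRT19 libraries and so had to differ. Of the other 70, 46 were called higher and 4 lower, with a median of 1.26. In 49 of the 85, sgScramble 3 was above the other 3 controls, as it was in 21.8% of all genes tested.

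**Figure D4:**
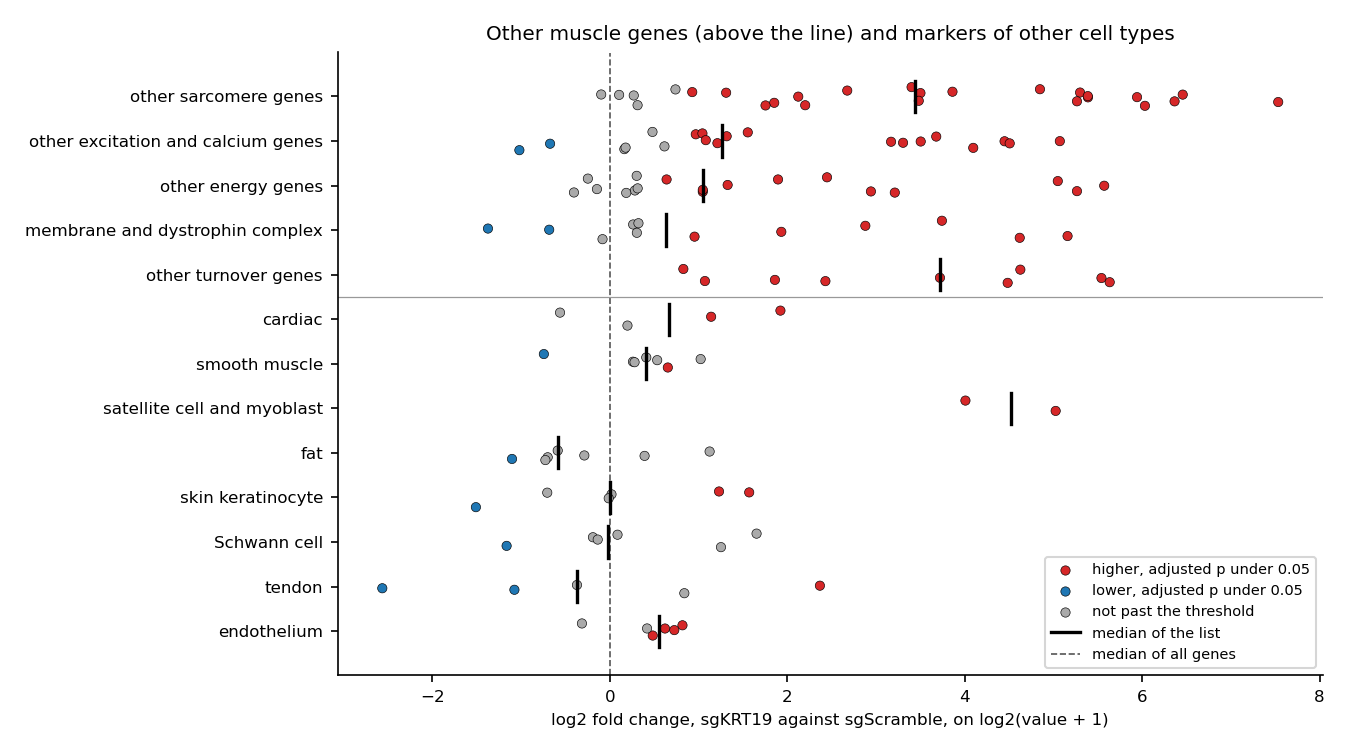
Log2 fold change of sgKRT19 against sgScramble on the log2(value + 1) scale for the tested genes of 5 lists of other muscle genes and 8 marker lists, with points spread vertically at random. Red and blue points passed the limma threshold as higher and lower, grey points did not, black bars are list medians and the dashed line is the median of all genes. The sarcomere and turnover lists have the highest medians among the muscle lists (3.44 and 3.72, the latter 3.08 with genes undetected in sgScramble set to their bound).

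Other sarcomere genes were higher in 21 of 26 tested and lower in none. *Csrp3*, muscle LIM protein, measured 0, 0 and 0.927 in sgScramble 1, 2 and 4, 32.0 in sgScramble 3, and 581.5, 446.1 and 548.2 in sgKRT19, 7.53 ± 1.03 (SE) on the log2 scale (adjusted p = 0.000578 by limma). *Lmod2*, a leiomodin that nucleates actin, was higher by 6.46 ± 1.05 (SE) on the log2 scale (adjusted p = 0.0015 by limma), though DESeq2 on the recovered reads gave it an adjusted p of 0.107. The 3 sarcomere genes with the smallest change are also used by other cells. *Flnc*, filamin C, was at 1271 to 1782 in sgScramble and 1287 to 1486 in sgKRT19, *Tpm3*, a tropomyosin, at 25476 to 29374 and 27426 to 31335, and *Ankrd1* at 3022 to 4006 and 4009 to 4759, and none passed the threshold (adjusted p = 0.613, 0.535 and 0.111 by limma).

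Other excitation and calcium genes were higher in 14 of 20 and lower in 2. *Hrc*, a calcium-binding protein of the sarcoplasmic reticulum, was at 4.64 to 11.9 in sgScramble and 141.0 to 218.5 in sgKRT19 (log2 fold change 4.51 ± 0.338 SE, adjusted p = 3.32e-05 by limma). *Sypl2*, mitsugumin 29 of the triad, was at 0 to 5.48 and 54.6 to 86.7. *Cacng6*, a calcium channel subunit, was at or under the floor in all 4 sgScramble libraries and at 24.0 to 46.2 in sgKRT19, at least 12.2-fold higher. The 2 that fell were *Cacna2d1*, a calcium channel subunit found in many tissues (1181 to 1702 in sgScramble, 658.1 to 803.4 in sgKRT19, -1.02 ± 0.146, adjusted p = 0.00075 by limma), and *Chrnb1*, the beta subunit of the acetylcholine receptor (1855 to 2070 and 1079 to 1447, -0.67 ± 0.119, adjusted p = 0.00235 by limma). *Asph*, whose locus also encodes the triad protein junctin, at 5794 to 6235 and 6562 to 7244, did not pass (adjusted p = 0.213 by limma). Both genes that fell were thus well expressed in every control tumor.

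Other energy genes were higher in 11 of 18 and lower in none. *Ckmt2*, the mitochondrial creatine kinase of muscle, was at or under the floor in all 4 sgScramble libraries and at 60.0 to 108.7 in sgKRT19, at least 27.1-fold higher. *Ppp1r3a*, which directs a phosphatase to glycogen, was at 0 in sgScramble 1, 2 and 4, 3.65 in sgScramble 3 and 37.0 to 72.5 in sgKRT19, and *Cox8b*, a muscle subunit of cytochrome c oxidase, at 0 to 1.86, 8.22 and 42.01 to 123.7. *Adssl1* of purine synthesis, the phosphorylase kinase subunit *Phka1* and the glycogen synthase *Gys1* were at 790.2 to 1062, 408.7 to 551.3 and 1912 to 2532 in sgScramble and did not pass (adjusted p = 0.125, 0.242 and 0.469 by limma). Without sgKRT19 5, *Adssl1* was called lower, with a log2 fold change of -0.65 (adjusted p = 0.0122 by limma), and likewise under scaling by library total (-0.62, adjusted p = 0.0135 by limma).

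Genes of the membrane and the dystrophin complex were the most mixed, with 6 of 12 higher and 2 lower. *Cav3*, muscle caveolin, was at 0 to 1.86 in sgScramble 1, 2 and 4, 8.22 in sgScramble 3 and 51.0 to 97.1 in sgKRT19, and *Trim72*, which reseals torn membrane, at 4.64 to 9.88, 22.8 and 107.1 to 187.3 (adjusted p = 0.000286 for *Trim72* by limma). The 2 that fell were *Dtna*, dystrobrevin (243.4 to 382.4 in sgScramble, 89.3 to 142.2 in sgKRT19, -1.37 ± 0.213, adjusted p = 0.00117 by limma), and *Sspn*, sarcospan (1067 to 1499 and 597.5 to 1156, -0.68 ± 0.219, adjusted p = 0.0358 by limma). The call of *Sspn* was lost without sgKRT19 6 (adjusted p = 0.106), sgKRT19 8 (0.131), sgScramble 2 (0.0903) or sgScramble 4 (0.0847), all by limma. *Dag1*, dystroglycan, at 4512 to 6283 and 4125 to 6058, did not pass (adjusted p = 0.723 by limma).

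All 9 tested genes of the other turnover list were higher. *Klhl40*, a relative of *Klhl41*, was at 0 to 1.86 in sgScramble 1, 2 and 4, 15.5 in sgScramble 3 and 92.0 to 144.9 in sgKRT19 (log2 fold change 5.54 ± 0.847 SE, adjusted p = 0.00107 by limma). *Trim54* and *Fbxo40*, a partner ligase of *Trim63* and a muscle F-box protein, had log2 fold changes of 5.63 ± 0.922 and 4.63 ± 0.963 (adjusted p = 0.00155 and 0.00552 by limma, 0.0885 and 0.0869 by DESeq2). *Asb5* and *Asb2* encode substrate adaptors of ubiquitin ligases. The smallest changes were those of *Asb5* (81.0 to 106.9 in sgScramble, 119.0 to 215.3 in sgKRT19), *Klhl30* (30.6 to 55.7 and 74.0 to 94.8) and *Asb2* (20.8 to 35.3 and 100.6 to 118.7), with adjusted p = 0.0187, 0.01 and 0.000459 by limma. *Asb5* lost its call without sgKRT19 5 (adjusted p = 0.0674), sgKRT19 8 (0.0733) or sgScramble 2 (0.0543), and under scaling by library total (0.0564), all by limma.

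Markers of other cell types were read beside the muscle genes, and their part in the muscle values was not tested. Of 43 tested markers, 12 were higher and 6 lower, but 10 and 9 under scaling by library total, 11 and 8 by DESeq2, and 7 and 7 without sgKRT19 5. The myoblast genes *Myod1* and *Myog*, which drive muscle differentiation, followed the muscle genes. *Myog* had no read in sgScramble 1, 2 and 4, a value of 18.3 in sgScramble 3, and 137.6, 55.0 and 39.9 in sgKRT19 (adjusted p = 0.0041 by limma, 0.161 by DESeq2). *Myod1* was at or under the floor in all sgScramble libraries and at 14.0 to 27.7 in sgKRT19, at least 6.35-fold higher, having passed the filter only through sgKRT19, while the satellite cell gene *Pax7* was at 0 to 2.96 in every library and *Myf5* at 0 to 1.16. The summed level of the 6 genes of that list was 0.929 to 3.95 in sgScramble 1, 2 and 4, 22.8 in sgScramble 3 and 67.2 to 227.7 in sgKRT19.

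Heart muscle shares many of these proteins, and its markers were mixed. The cardiac troponins *Tnnt2* and *Tnni3* were present in all 7 libraries, at 444.2 to 923.7 and 99.0 to 190.1, and did not pass the threshold (adjusted p = 0.507 and 0.06 by limma). *Myh6* was at 0 to 2.00 and *Myl7* at 0 to 4.62 in all 7 libraries, *Nppa* at 1.83 to 5.93 and *Nppb* at 0.988 to 6.30. *Myl4*, a light chain of the atrium and of developing muscle, was higher (58.4 to 161.7 in sgScramble, 216.3 to 711.0 in sgKRT19, adjusted p = 0.00891 by limma), as was *Ryr2* (7.43 to 10.2 and 14.7 to 26.6, adjusted p = 0.0217 by limma), whose call was lost without sgKRT19 5, sgKRT19 6 or sgScramble 2 (adjusted p = 0.0861, 0.059 and 0.0546 by limma). The summed cardiac list overlapped between groups, at 708.6 to 978.2 and 871.6 to 1795. Smooth muscle genes had 1 called higher and 1 lower of 7 tested, *Acta2* at 2651 to 3628 and 3885 to 6462 (adjusted p = 0.0165 by limma, 0.0595 without sgKRT19 5) and *Smtn* at 1574 to 1961 and 891.6 to 1176 (adjusted p = 0.00212 by limma), and their sum overlapped as well (6791 to 9596 and 8339 to 14390).

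For the fat, skin and Schwann cell lists, the sum in sgScramble 3 lay within the range of the other 3 controls. By gene, sgScramble 3 was above those controls in 0 of 7 tested fat genes and 2 of 6 Schwann cell genes. It was above them in 2 of 6 skin genes (*Krt14* and *Lor*). In the other marker lists it was above them in 4 of 5 tested tendon genes and 3 of 6 endothelial genes. The counts were 2 of 2 for satellite cell and myoblast genes, 1 of 4 for cardiac genes and 0 of 7 for smooth muscle genes. The share over all genes tested was 21.8%. The skin gene *Flg*, not tested, was at 11.9 in sgScramble 3, at 0 to 0.927 in the other controls and at 0 in sgKRT19. The summed fat list was at 1127 to 3733 in sgScramble and 2013 to 3104 in sgKRT19, with 1 gene lower (*Plin4*, adjusted p = 0.0025 by limma) and none higher of 7 tested. The skin list was at 404.4 to 725.4 and 783.8 to 884.1, with *Ivl* and *Krt15* higher (adjusted p = 0.0089 and 0.0192 by limma) and *Lor* lower (adjusted p = 0.0262 by limma), and *Krt10* (124.0 to 180.3), *Krt14* (18.9 to 70.3) and *Sbsn* (67.0 to 205.3) present in every library without passing the threshold. The keratins *Krt1* and *Krt5* were at 0 to 1 and 0 to 14.7. *Krt15* lost its call without sgKRT19 6, sgKRT19 8 or sgScramble 2 (adjusted p = 0.0718, 0.069 and 0.0531 by limma), and *Lor* without sgKRT19 6, sgKRT19 8, sgScramble 1 or sgScramble 3 (adjusted p = 0.0884, 0.0643, 0.0553 and 0.0556 by limma). The Schwann cell list was at 1597 to 2171 and 1150 to 1476, with *Mbp* lower (adjusted p = 0.00144 by limma).

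The tendon list summed to 1032, 1060 and 1190 in sgScramble 1, 2 and 4, 1481 in sgScramble 3 and 1103 to 1832 in sgKRT19. Among its genes, *Thbs4*, a matrix protein also made at muscle ends, was at 42.7, 88.9 and 116.9 in sgScramble 1, 2 and 4, 150.7 in sgScramble 3, and 637.0, 560.1 and 294.0 in sgKRT19 (log2 fold change 2.37 ± 0.403 SE, adjusted p = 0.00191 by limma). *Comp* fell, from 78.1 to 207.3 in sgScramble to 10.4 to 36.8 in sgKRT19 (-2.56 ± 0.428, adjusted p = 0.00171 by limma), and *Tnmd*, a tendon cell protein, was at 0 to 2.10 in every library. The tendon transcription factor *Scx* was at 770.9 to 921.5 in sgScramble and 448.1 to 1001 in sgKRT19 and did not pass the threshold (adjusted p = 0.234 by limma). *Mkx* was called lower (adjusted p = 0.0273 by limma), and the call was lost without sgKRT19 5, sgKRT19 8, sgScramble 1, sgScramble 2 or sgScramble 4 (adjusted p = 0.0953, 0.0847, 0.0586, 0.0518 and 0.0572 by limma). Endothelial genes were higher in 4 of 6, with a median log2 fold change of 0.55 against 1.90 for the wider muscle set. For the 70 genes of that set that reached a value of 10 in at least 1 sgScramble library, the median was 1.26. *Cdh5* and *Vwf* did not pass the threshold (adjusted p = 0.093 and 0.245 by limma). The log2 fold change of *Vwf* was negative (-0.31 ± 0.201 SE), with 526.7 to 1016 in sgScramble and 543.1 to 666.9 in sgKRT19. *Emcn* and *Kdr* had log2 fold changes of 0.82 ± 0.176 and 0.73 ± 0.144 (adjusted p = 0.00653 and 0.00424 by limma), and *Tie1* and *Pecam1* had 0.62 ± 0.185 and 0.48 ± 0.136 (adjusted p = 0.0267 and 0.0212 by limma). The calls of *Tie1* and *Pecam1* were lost without sgKRT19 5 (adjusted p = 0.0631 and 0.068), sgKRT19 8 (0.0936 and 0.056) or sgScramble 2 (0.0737 and 0.0646), and under scaling by library total, with log2 fold changes of 0.41 and 0.27 (0.142 and 0.19), all by limma.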

How the data were processed

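RNA of 7 tumors was made into cDNA libraries. The labels call the molecule polyA RNA, whereas the methods name a TruSeq Stranded Total RNA kit. The authors counted reads per gene and deposited 1 table of values of 38026 genes, a signal that is reads divided by 1 size factor per library. All values (100%) of each library came back as whole reads (tolerance 0.001 reads), 40781199 to 44972100 per library. The submitters' processing notes name the build mm10, and the aligner, the counter and the annotation are not given in the sources used here. The 42 genes and all gene lists were chosen with earlier results of these data known. Each library came from an individual tumor, so p-values measure the spread between tumors of a group, technical spread included.

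The table was joined to GENCODE M21 (GRCm38) by identifier, version ignored where it differed (37436 of 38026 matched), for positions and for exon length, the union of all exons. The wider lists were read in limma 3.58.1 (lmFit, eBayes with a trend, R 4.3.3) on log2(value + 1) over genes that reached a value of 10 in 3 or more libraries, with group as the only term and Benjamini-Hochberg adjustment at 0.05. The planned count test was replaced by limma because the table is normalized. For genes low in sgScramble such fold changes are not ratios of mean values and can err either way. *Myod1* and *Cacng6* had log2 fold changes of 4.01 and 4.45 by limma against 6.03 and 5.25 by DESeq2. *Csrp3* and *Lmod2* had 7.53 and 6.46 by limma against 5.98 and 4.85 by DESeq2. Alternatives were edgeR 4.0.16 (quasi-likelihood, TMM) and DESeq2 1.42.0 on the recovered reads, scaling by library total, a pseudocount of 10, no filter, and leaving out each library. The fit was tested on simulated data. Genes were named by rule: by role the 2 or 3 with the highest sgKRT19 mean, those whose lowest sgKRT19 value was under 3 times the highest of sgScramble 1, 2 and 4, per wider list the 3 largest and 3 smallest changes and all that fell, and every marker called. Some genes that this rule names are not reported here. Python 3.11.15 and scipy 1.17.1 gave Poisson intervals. The upstream sequences are from RefSeq.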

Additional observations from a re-analysis of the deposited data

Results flagged for a closer look

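In each group of 4 sgScramble libraries, the gap from the highest or lowest library to the nearest of the others was divided by the whole range, and values above Dixon's 95% critical value for 4 samples are listed here. Of 62 results examined, 35 were above it, and in each of these sgScramble 3 was the highest. The rate that chance gives, about 1 in 20, does not apply to them, since the genes were chosen with sgScramble 3 known to stand apart and share a tissue. The ratios and their number are a description and no test.

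Of the 42 muscle genes, 29 are listed. *Myot*, *Smpx*, *Trdn*, *Sln* and *Trim63*, which had no read in the other 3 control tumors, each had a ratio of 1. Thin filament genes had 0.994 (*Acta1*), 0.981 (*Tnnt3*), 0.988 (*Tnnc2*) and 0.942 (*Neb*). In the thick filament and M band the ratio was 0.909 for *Mylpf*, 0.943 for *Myl1*, 0.992 for *Mybpc1*, 0.987 for *Mybpc2* and 0.921 for *Myom2*. Z disc genes had 0.984 (*Actn2* and *Actn3*), 0.969 (*Xirp2*), 0.958 (*Tcap*), 0.910 (*Nrap*) and 0.949 (*Des*). Calcium genes had 0.940 (*Pvalb*), 0.924 (*Atp2a1*), 0.934 (*Ryr1*), 0.923 (*Cacna1s*) and 0.856 (*Cacng1*). Energy genes had 0.974 (*Ckm*), 0.926 (*Pygm*) and 0.951 (*Mb*), and *Klhl41* had 0.968.

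Of the summed lists, all 42 genes together had a ratio of 0.953, the thin filament 0.966, the thick filament and M band 0.939, the Z disc 0.958 and calcium handling 0.915. Among the marker lists of other cell types, the satellite cell and myoblast list had 0.862.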

How the results depend on the processing

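The count of other muscle genes called higher was 55 to 63 under edgeR, DESeq2, scaling by library total, a pseudocount of 10 and no filter, and 42 to 60 with 1 library left out, where only 70 of them could be tested once an sgKRT19 library was missing. Leaving out 1 library gave 4861 to 7714 calls over all genes and 12 to 20 calls among the markers of other cell types. The summed level of the 42 genes was 13.5-fold higher in sgKRT19, 11.5-fold when scaled by library total, 16.0-fold per kilobase of exon, and 12.1-fold to 19.5-fold with 1 library left out, the upper end without sgScramble 3. The median of sgScramble 3 as a percent of the sgKRT19 mean was 11.7, and 13.7 when scaled by library total. It was 14.3 as a ratio of summed values, 9.36 after subtraction of the other controls, and 10.6 to 12.0 with 1 sgKRT19 library left out. It gives no value without sgScramble 3. None of the 42 genes changed the sign of its fitted log2 fold change in the fits that included it. *Myoz1* and *Ampd1* could not be fitted with an sgKRT19 library left out.

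Scaling by library total turned the direction of *Tpm3* (log2 fold change -0.11) and *Asph* (-0.052), and leaving out sgKRT19 8 turned *Gys1* (0.012, range with 1 library left out -0.230 to 0.012) and *Dag1* (0.063, range -0.214 to 0.063), none of them past the threshold either way. Of 555 further values of the 48 other genes named, 37 lost and 2 gained a call. The causes were not tested. The paper's heat map caption describes control and *Krt19*-edited cells as paired, but the labels do not give the pairs. No paired analysis was possible because the groups share no replicate numbers. Depth limits the genes near 3 reads, and 1 library such as sgScramble 3 has no replicate.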
